A study of Rattus norvegicus with 8 samples.

Results

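Proliferating microglia and macrophages of the injured rat spinal cord were taken as cells that carried both the myeloid genes Tyrobp and C1q and the proliferation genes Mki67 and Top2a. A cell had to hold at most 10% of its UMIs (unique molecular identifiers, which mark single RNA molecules) on mitochondrial genes and at least 1000 UMIs in all. It then had to hold at least 3 UMIs of Tyrobp and at least 10 of C1qa, C1qb and C1qc together, which is called the gate here. Of the 18951 cells that passed the gate, the 4441 cells with at least 4 UMIs of Mki67 and Top2a together were called cycling cells. They made up 23.4% of the gated cells and 7.75% of the 57296 cells within the mitochondrial and UMI limits, out of 68658 deposited cells. The 10298 gated cells without any UMI of Mki67 and Top2a were the comparison and are called non-cycling cells, and the 4212 gated cells with 1 to 3 UMIs were kept apart. These cells were selected on their measured UMIs of 6 genes, so the levels of those genes are given as a description.

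Microglia are the resident macrophages of the central nervous system, and macrophages enter the injured cord from the blood and from its borders. Both kinds of cell can divide in place after injury, and Tyrobp, a signalling adaptor, and C1q, the recognition component of the classical complement pathway, are expressed by both, so the gate does not separate them. A dividing cell copies its DNA in S phase with helicases, polymerases and enzymes that make deoxynucleotides, and later condenses and parts its chromosomes with kinases, kinetochores and spindle motors. Mki67 encodes a protein that coats mitotic chromosomes, and Top2a encodes the topoisomerase that untangles sister DNA.

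Droplet-based 3' libraries were made from the spinal cord of female Wistar rats aged 8 weeks, 7 days after a weight of 10 g had fallen on the exposed cord. Height set the severity: a fall of 12.5 mm was called mild, 25 mm moderate and 50 mm severe, while sham rats had their lamina removed without impact. Each group had 2 libraries, called replicates 1 and 2, made from 10 mm of tissue around the lesion by enzymatic digestion. The study's text counts as many spinal cords as libraries, and the labels name neither the rat nor a batch, so p-values measure the spread between libraries.

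The libraries held between 31482153 and 131045446 UMIs in all. The number of cycling cells was 81 and 272 for sham, 826 and 1044 for mild, 1075 and 652 for moderate and 61 and 430 for severe injury. Sham replicate 1 and severe replicate 1 therefore gave the thinnest profiles, with 2045516 and 1353864 UMIs summed over their cycling cells.

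Several libraries stood apart by RNA of other cells, which was read from marker lists summed over the cycling cells in UMIs per 1000000 UMIs of those cells (CPM). The 11 neutrophil markers, led by S100a9, summed to 4139 CPM in sham replicate 1 and to between 39.7 and 164 CPM in the other 7 libraries. In sham replicate 1, 100% of both the cycling and the non-cycling cells held at least 3 neutrophil UMIs. The 7 erythroid markers, led by Hba-a2, summed to 521 CPM in sham replicate 1 and to 681 and 1185 CPM in the severe libraries, against at most 3.92 CPM elsewhere. At least 3 erythroid UMIs were found in 46.9% of cycling cells in sham replicate 1, in 83.7% in severe replicate 2 and in 1.64% in severe replicate 1, so in the last the sum came from very few cells. The 9 oligodendrocyte markers ran from 84.2 CPM in severe replicate 1 to 1223 CPM in sham replicate 1, and the 8 fibroblast markers, led by Mgp, from 1.81 CPM in sham replicate 2 to 1228 CPM in moderate replicate 1. The part of free RNA or of mixed droplets in the values below was not tested. Barcodes shared between libraries numbered 571 among the deposited cells and 2 among the cycling cells.

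The label was checked with genes that the rule did not use. Ube2c, which feeds the ubiquitin ligase that starts anaphase, was detected in 74.1% to 87.9% of the cycling cells of each library and in 3.63% to 16.9% of the non-cycling cells. Cenpf, a kinetochore protein, was detected in 64.2% to 84.9% of cycling and in 0.86% to 9.66% of non-cycling cells. At least 4 UMIs of a panel of 5 mitotic genes (Ube2c, Cenpf, Birc5, Ccnb1 and Cdk1) were found in 84.0% to 93.8% of the cycling cells and in 1.29% to 10.7% of the non-cycling cells. The background of the rule's own genes, which is no check of the label, was read in other cells: after each cell had been thinned to 3000 UMIs, 28.1% of gated cells held a UMI of Mki67 or Top2a, against 2.18% of neutrophils and 1.91% of oligodendrocytes, which do not divide. Sham replicate 1 gave 2764 of these 2984 neutrophils, and without it the share was 4.09% (9 of 220), while oligodendrocytes reached 12.1% (7 of 58) in moderate replicate 2. Around the limit of 4 UMIs the change was gradual: the panel stood at 401 CPM in the 654 gated cells with exactly 3 UMIs and at 455 CPM in the 477 cells with exactly 4.

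Cycling cells took a larger share of the gated cells in the mild and moderate libraries than in the sham libraries. The share was 12.98% (95% Wilson interval 10.6 to 15.8) and 11.7% (10.4 to 13.04) in the sham libraries. It was 38.8% (36.8 to 40.9) and 28.0% (26.6 to 29.4) after mild, 21.1% (19.99 to 22.2) and 30.3% (28.4 to 32.3) after moderate, and 12.4% (9.75 to 15.6) and 17.9% (16.5 to 19.5) after severe injury. The intervals cover counting error only, and all 4 mild and moderate libraries lay above both sham libraries, whereas the severe libraries lay on both sides of sham replicate 1. Group means were 12.3% ± 0.93 for sham, 33.4% ± 7.67 for mild, 25.7% ± 6.54 for moderate and 15.2% ± 3.94 for severe (SD, n = 2 each).

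Over libraries, the injured mean of 24.8% exceeded the sham mean by 12.4 percentage points, with p = 0.143 by a two-sided exact permutation test of 6 against 2 libraries, for which 0.0714 is the smallest p (adjusted p = 0.857 over a family of 12 tests). The order sham, mild, moderate, severe showed no relation with the share that passed an exact permutation test (Spearman's rho 0.098, p = 0.861; Pearson's r 0.010, p = 0.979; both adjusted p = 0.979; n = 8). In restrictions chosen after the data had been seen, r was 0.57 without the severe libraries (exact permutation p = 0.244, n = 6) and -0.857 without the sham libraries (p = 0.0444, n = 6). The share of all cells within the limits gave another order, with 0.877% and 10.3% in the sham libraries. It was 11.0% and 12.4% after mild, 9.90% and 10.0% after moderate and 1.53% and 5.31% after severe injury. By this measure both moderate and both severe libraries lay below sham replicate 2. Gated cells made up 6.76% of sham replicate 1 and 88.1% of sham replicate 2.

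**Figure D1:**
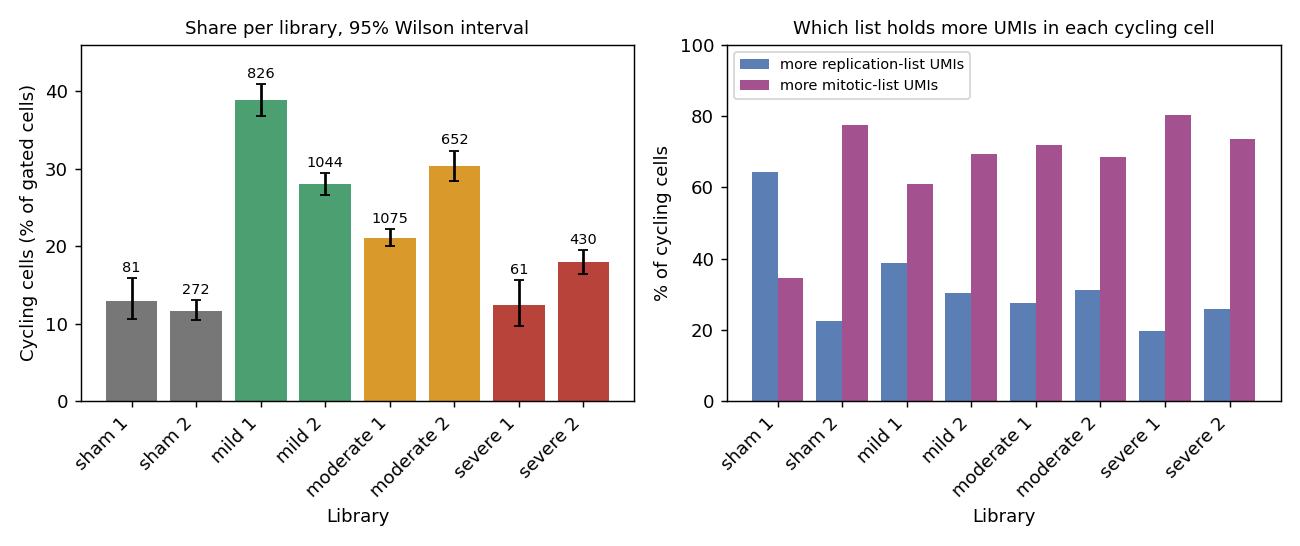
Left: cycling cells as a percentage of gated cells in each of the 8 libraries, with 95% Wilson intervals and the number of cycling cells above each bar. Right: percentage of cycling cells that held more UMIs of the replication lists (blue) or of the mitotic lists without the spindle list (purple). The 2 mild and 2 moderate libraries reach 21.1% to 38.8%, and sham replicate 1 alone has more replication-dominated cells, 64.2%.

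Depth moved with the rule. The median cycling cell held 14157 to 27320 UMIs over the libraries and the median non-cycling cell 8382 to 16892, and the ratio within a library ran from 1.54 to 2.99. Cells were therefore also matched on depth within 10% in 3412 pairs and thinned to 3000 UMIs, and list counts that differ with depth matching are named below. Of the 4891 genes called between cycling and non-cycling cells (43.9% of those tested), 3629 (74.2%) were also called with matched cells and 2969 (60.7%) with thinned cells. Of the cycling cells, 692 (15.6%) were among the 7.7% of cells with the highest doublet scores of their library. By library the share was 6.17% to 18.1% of cycling and 6.99% to 14.8% of non-cycling cells. It was lower in cycling cells only in sham replicate 1, at 6.17% against 11.4%.

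The division machinery was higher in cycling than in non-cycling cells, by choice of the cells, and the size of the difference varied between genes of S phase and of mitosis. The difference for a gene was taken within each library as log2 of cycling over non-cycling CPM with 1 CPM added, and no test is given for genes of the cell cycle lists. Above 0 on average were all 31 tested genes of the replication list, 9 of 9 of deoxynucleotide synthesis, 18 of 18 of mitotic entry, 17 of 17 of the kinetochore, 19 of 19 of the spindle, 9 of 9 of anaphase, 11 of 11 of cytokinesis, 20 of 20 of chromatin and condensin and 12 of 12 of recombination and Fanconi repair. Of these, all members were higher in all 8 libraries except 1 each of the replication, anaphase and repair lists, and of all 11131 genes tested 2538 (22.8%) were.

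Ube2c stood at 220, 422 and 765 CPM (lowest, median and highest library) in cycling cells and at 3.84, 10.2 and 15.9 CPM in non-cycling cells, a difference of 5.50 ± 0.80 (SD, n = 8). Cenpf stood at 132, 320 and 426 against 1.07, 7.06 and 12.1 CPM, a difference of 5.36 ± 0.61. For both genes every library was higher in cycling cells and the ranges did not overlap. The spindle protein Nusap1 differed by 5.87 ± 0.79, the mitotic kinase Plk1 by 5.24 ± 0.49, the midzone protein Prc1 by 5.19 ± 0.74 and cyclin A2, Ccna2, which acts in S phase and at mitotic entry, by 4.72 ± 0.84.

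Several genes of S phase differed less, although the genes of both phases were not picked alike. The mitotic genes above were among the largest differences of their lists, whereas Mcm5 and Pcna below were not. Not every mitotic gene was as specific. Aurka was detected in 56.1% to 82.6% of cycling and in 15.7% to 41.3% of non-cycling cells. Plk1 was detected in 0.55% to 3.1% of non-cycling cells. Mcm5, a subunit of the replicative helicase, stood at 31.8, 68.0 and 92.4 CPM in cycling and at 5.73, 14.9 and 33.9 CPM in non-cycling cells, a difference of 2.03 ± 0.44 with ranges that overlapped. Pcna, the sliding clamp of DNA polymerase, differed by 1.35 ± 0.14 and Uhrf1, which carries DNA methylation through replication, by 2.94 ± 0.46. Rrm2, the regulated subunit of ribonucleotide reductase, differed by 4.23 ± 0.86. Among the G1 and S regulators, 14 of 20 genes were above 0. Cyclin E2, Ccne2, was higher by 2.59 ± 0.71, whereas the inhibitor Cdkn1a was lower in 7 of 8 libraries (-0.38 ± 0.52) and Rb1 differed by 0.05 ± 0.34.

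For the few genes named here, a like contrast shows in where the gated cells' RNA lay. Cycling cells held 30.6% ± 11.8 (SD, n = 8 libraries) of all UMIs of gated cells. They held 94.8% ± 2.48 of the UMIs of Nusap1, 91.4% ± 3.71 of Ube2c, 88.3% ± 4.82 of Cenpf and 75.8% ± 5.42 of Birc5, an inhibitor of apoptosis that also serves the chromosomal passenger complex. Pcna was spread more widely, with 47.9% ± 11.5 in cycling cells, and C1qc, a gate gene, was at 29.7% ± 12.4.

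Within the gated cells, replication and mitotic genes followed the UMIs of Mki67 and Top2a in different ways. From cells with 0 through 1 to 3, 4 to 7, 8 to 15 and 16 or more such UMIs, the cytokinesis list rose from 55.0 to 171, 492, 755 and 1330 CPM (means of 8 libraries). The kinetochore list rose likewise, from 102 to 1927 CPM. The spindle list, from 1384 to 6617 CPM, and the anaphase list, from 384 to 2069 CPM, also rose through every bin. Their early rise was smaller than that of S phase lists. On the log2 scale the 4 to 7 bin exceeded the 0 bin by 1.47 for spindle and 1.30 for anaphase. It did so by 1.88 for replication and 1.73 for deoxynucleotide synthesis. The replication list, in contrast, went from 531 to 1151, 1900, 1934 and then 1512 CPM, and in the highest bin it was below the 4 to 7 bin in 8 of 8 libraries (-0.35 ± 0.23 on the log2 scale). Other S phase lists did not fall between these bins: deoxynucleotide synthesis was higher at 16 or more by 0.19 ± 0.11 (7 of 8 libraries), the G1 and S regulators by 0.27 ± 0.11 (8 of 8) and recombination and Fanconi repair by 0.08 ± 0.55 (7 of 8). Bins of a library held at least 12 cells, the fewest in severe replicate 1, and the 2 highest bins had under 20 cells there.

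Cycling cells also differed by library in their makeup. UMIs of the replication and deoxynucleotide synthesis lists were set against those of the mitotic entry, kinetochore, anaphase and cytokinesis lists, without the spindle list. Cells with more UMIs of the replication lists than of the mitotic lists were 64.2% of the cycling cells of sham replicate 1 and between 19.7% and 38.7% in the other 7 libraries. Sham replicate 2, at 22.4%, lay among the injured libraries.

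**Figure D2:**
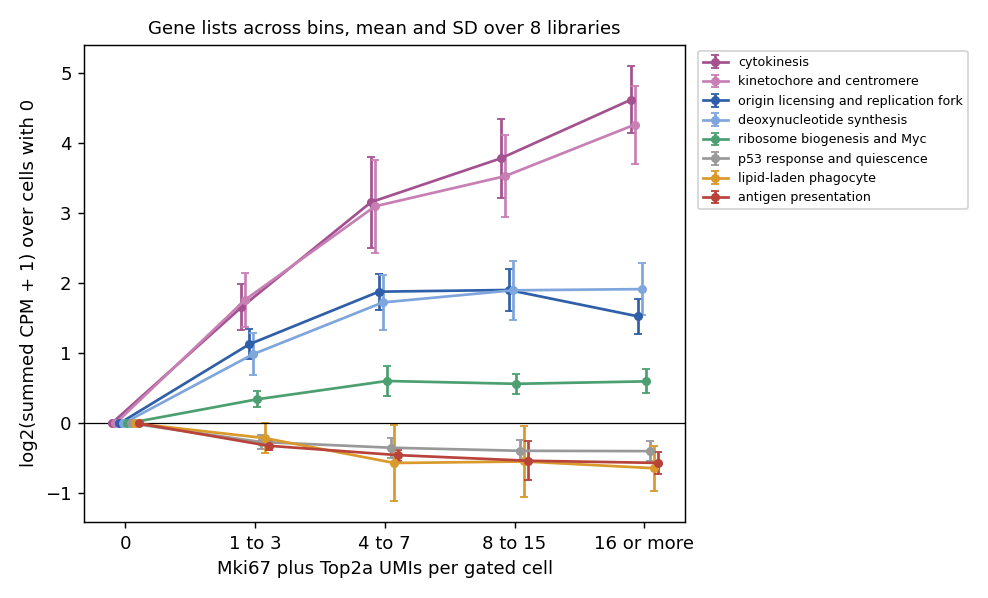
Summed level of 8 gene lists in gated cells binned by their Mki67 plus Top2a UMIs, as log2 of summed CPM plus 1 relative to cells with 0 such UMIs; points are means and bars SDs over 8 libraries. Cytokinesis and kinetochore genes climb through every bin, replication genes level off and are lower at 16 or more, and the lipid-laden phagocyte, antigen presentation and p53 lists lie on average below 0 in every bin above 0 UMIs.

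The promoters of these lists held different short motifs, which is a description of sequence and not of binding. Promoters are read here from RefSeq on build GRCr8, 250 bases before to 50 bases after each gene's start. By symbol, 66 of 77 mitotic genes and 29 of 32 of the replication list were matched. The mitotic set held the mitotic entry, kinetochore, spindle, anaphase and cytokinesis lists, with Mki67 and Top2a of the rule added. TTTGAA, the core of the cell cycle homology region (CHR) known from mitotic genes, was present on either strand in 43 of 67 mitotic windows (64.2%), in 3 of 31 replication windows (9.68%) and in 18.3% of all 33469 windows in the table. TTTGGCGC or TTTCCCGC, forms of the E2F site known from S phase genes, were present in 3 mitotic windows (4.48%), 14 replication windows (45.2%) and 1.45% of all windows. CCAAT, the letters bound by NF-Y, was found in 68.7% of the mitotic, 74.2% of the replication and 37.5% of all windows.

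For the gene pair that selected the cells, for Cdk1 and for 2 replication genes, the 120 bases before the start are printed 5' to 3' on the gene's strand, with the motif letters in capitals (ATTGG and TTCAAA are CCAAT and TTTGAA read on the other strand, and GCGCCAAA is TTTGGCGC). Mki67 and Cdk1 each hold 2 copies of TTTGAA, and in Mki67 a copy overlaps ATTGG by 1 base, whereas Mcm5 and Tipin hold an E2F form. The printed windows were chosen with their motifs known: in the 120 bases before their starts Cenpf, Ccnb1, Plk1 and Nusap1 hold no TTTGAA, and Mcm6 and Rrm1 no E2F form. Mki67 lies on the minus strand at chr1:199952594-199952713, Top2a on the minus strand at chr10:84473094-84473213, Cdk1 on the plus strand at chr20:19265173-19265292, Mcm5 on the plus strand at chr19:13488693-13488812 and Tipin on the plus strand at chr8:73675971-73676090.
Mki67: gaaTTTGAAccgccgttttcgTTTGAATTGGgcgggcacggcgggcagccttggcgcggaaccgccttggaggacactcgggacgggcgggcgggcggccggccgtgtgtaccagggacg
Top2a: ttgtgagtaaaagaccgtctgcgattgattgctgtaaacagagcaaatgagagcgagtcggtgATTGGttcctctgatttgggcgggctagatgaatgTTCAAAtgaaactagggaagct
Cdk1: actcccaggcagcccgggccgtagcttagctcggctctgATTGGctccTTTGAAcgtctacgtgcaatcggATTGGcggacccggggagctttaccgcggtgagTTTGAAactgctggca
Mcm5: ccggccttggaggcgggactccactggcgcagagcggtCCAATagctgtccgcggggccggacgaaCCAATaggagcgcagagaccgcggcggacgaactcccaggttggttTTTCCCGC
Tipin: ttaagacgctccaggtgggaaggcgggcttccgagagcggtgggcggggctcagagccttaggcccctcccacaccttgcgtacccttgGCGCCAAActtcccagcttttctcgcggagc

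Beyond the division genes, antigen presentation, lipid handling and p53 response genes took a lower share of the UMIs of cycling cells. Ribosome biogenesis genes took a higher share, each against non-cycling cells of the same library. The median cycling cell held 1.54 to 2.99 times the UMIs of the median non-cycling cell. A lower share therefore need not mean fewer UMIs per cell, which were not compared. Summed UMIs were tested by edgeR's quasi-likelihood test with the library as a block and Benjamini-Hochberg adjustment over 11131 genes, of which 4891 (43.9%) passed an adjusted p of 0.05, 2219 (19.9%) higher and 2672 (24.0%) lower in cycling cells. Both sides of this contrast were chosen by their Mki67 and Top2a UMIs, so an adjusted p here says only that the difference between cells so chosen recurred over 8 libraries. Outside the gate and the cell cycle lists, 10959 genes were tested and 4723 passed, and the median difference was -0.05 on the log2 scale. Scaling by library size alone in place of TMM moved the median of all genes up by 0.18, and 3942 of the 5065 genes then called were higher, so small differences turn on the scaling.

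Genes of antigen presentation were lower in cycling cells, with 0 of 9 tested list members higher and 6 lower (the 5 class II genes named here and B2m), and the same count after depth matching and after scaling by library size. RT1-Da, an alpha chain of the rat class II molecule, stood at 28.4, 103 and 177 CPM (lowest, median, highest library) in cycling cells and at 120, 320 and 513 CPM in non-cycling cells. It was lower in 8 of 8 libraries, by edgeR at -1.92 (SE 0.19, adjusted p = 1.14e-05). The other class II chains RT1-Bb (-1.85), RT1-Db1 (-1.73) and RT1-Ba (-1.68) and the invariant chain Cd74 (-1.55, SE 0.10, adjusted p = 4.35e-07) were also lower in 8 of 8 libraries. B2m, the light chain of class I, fell by 0.48 (SE 0.057, adjusted p = 4.43e-05). The median of the 9 members was -1.55, against -0.04 for all genes tested.

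Genes of the lipid-laden phagocyte were likewise lower, with 0 of 17 higher and 12 lower. Apoe, the lipid carrier that phagocytes make on taking up myelin, stood at 1662, 18590 and 23820 CPM in cycling and at 3885, 40690 and 56270 CPM in non-cycling cells, and sham replicate 1 was the lowest library on both sides. Apoe differed by -1.19 (SE 0.14, adjusted p = 3.94e-05) and Apoc1, a neighbouring lipoprotein gene, by -1.68 (SE 0.17, adjusted p = 1.16e-05), both lower in 8 of 8 libraries. Trem2, the lipid-sensing receptor that signals through Tyrobp, differed by -0.65 and the cholesterol exporter Abca1 by -0.72. With depth-matched cells 16 of 17 members were lower, and with scaling by library size 7. The 9 oligodendrocyte markers, whose RNA can enter phagocytes with myelin, moved alongside: 8 were lower in cycling cells by the edgeR test, and their sum in non-cycling cells ran from 316 to 3681 CPM.

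In the p53 response and quiescence list 10 of 12 members were lower and 0 higher. Btg1, an antiproliferative gene, stood at 82.6, 138 and 220 CPM in cycling and at 94.2, 219 and 443 CPM in non-cycling cells and was lower in 8 of 8 libraries (-0.85, SE 0.11, adjusted p = 0.000109 by edgeR). Klf4 (-0.63), Gadd45a (-0.62) and Gadd45b (-0.55), which act in growth arrest or the response to damage, were lower as well. The count was 7 with depth-matched cells and 5 with scaling by library size.

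Ribosome biogenesis and Myc-linked genes went the other way, with 13 of 15 higher and 1 lower. Ranbp1, a partner of the transport GTPase Ran, stood at 339, 428 and 838 CPM in cycling and at 131, 137 and 525 CPM in non-cycling cells, higher in 8 of 8 libraries. Its edgeR difference was 1.16 (SE 0.095, adjusted p = 2.44e-06), that of Ran 1.05 (SE 0.11, adjusted p = 2.43e-05) and that of Nop58, a nucleolar protein that guides ribosomal RNA modification, 0.86. Myc itself was the member that was lower, at -0.29 (adjusted p = 0.0388), and it did not pass in the fit of depth-matched cells, where 12 members were higher and 0 lower.

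The lists that describe the kind of macrophage differed less evenly. Of all 11131 genes tested 24.0% were lower and 19.9% higher in cycling cells. Of 15 homeostatic microglia genes 7 were lower and 1 higher, but with depth-matched cells 2 were lower and 2 higher. P2ry12, the purine receptor of resting microglia, was higher in 4 libraries and lower in 4 (-0.25, adjusted p = 0.197), whereas Siglec5 was lower in 8 of 8 libraries (-0.91, adjusted p = 0.000508). Of 10 border macrophage genes 3 were lower, which is near the share of all genes, so nothing is read from that count. Among the 3 were the chemokine Pf4 (-1.02, SE 0.085, adjusted p = 2.92e-06) and the membrane protein Ms4a7 (-0.90). Of 11 infiltrating monocyte genes 4 were lower: Lyz2, lysozyme, at -0.80 (SE 0.068, adjusted p = 3.19e-06), Hp, haptoglobin, at -1.84, Thbs1 at -1.57 and Emilin2 at -1.52. The median of that list was -0.14 and turned to 0.03 with scaling by library size. Of 12 interferon response genes 8 were lower, among them Mx1 (-0.80, adjusted p = 0.00235), and 3 with depth-matched cells.

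The inflammatory list had 1 of 15 members lower, Cd83, a marker of activated antigen-presenting cells, and 0 higher, but 7 were higher and 0 lower when cells were matched for depth. Cxcl2, a neutrophil chemoattractant, differed by -0.20 (adjusted p = 0.0902) over all cells and by 0.35 (adjusted p = 0.0176) over depth-matched cells. Of 16 growth factor and receptor genes 11 were lower, though only 4 with depth-matched cells. Csf2ra, the receptor chain for GM-CSF, was lower in 8 of 8 libraries (-0.65, SE 0.042, adjusted p = 3.19e-07). Csf1r, the receptor for CSF1, differed by -0.27 (adjusted p = 0.024), and by 0.20 with depth-matched cells.

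In the dissociation stress and immediate early list, which reads RNA made while tissue is digested, 7 of 14 genes were lower and 1, the chaperone Hsp90aa1, was higher (0.63, SE 0.069, adjusted p = 2.57e-05). Atf3, an early stress factor, was lower by the largest amount in that list (-0.58, SE 0.081, adjusted p = 0.00016).

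The study had singled out 8 genes as immune-related autophagy factors, so that list is not independent of these libraries. Birc5 was higher by choice of the cells (3.58 ± 0.62), and Hdac1, a histone deacetylase, was higher in 8 of 8 libraries, with 0.48 (SE 0.051, adjusted p = 1.89e-05). Vegfa, a vessel growth factor (-1.31, SE 0.15, adjusted p = 2.85e-05), Cxcr4, a chemokine receptor (-1.17, adjusted p = 0.000999), the protease Ctsb (-0.34) and the chaperone Hspa5 (-0.27) were lower. Hspa8 (-0.08, adjusted p = 0.26) and Eif2ak2 (0.02, adjusted p = 0.852) did not pass. Hspa8 turned to 0.11 and Hdac1 stayed above 0 with scaling by library size.

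**Figure D3:**
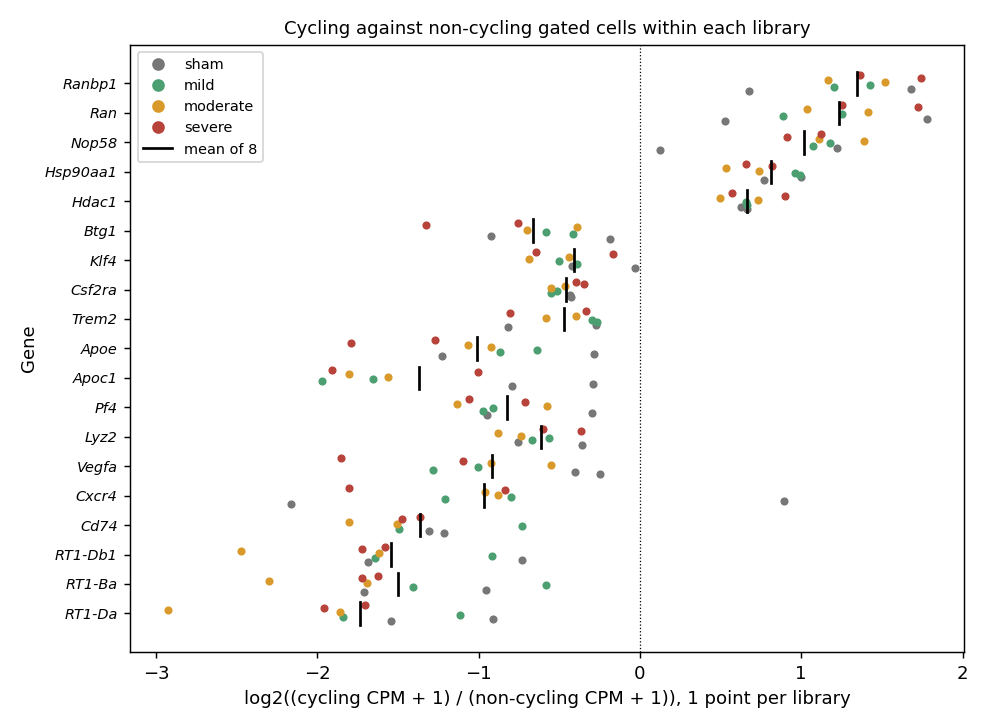
Log2 of cycling over non-cycling CPM (1 CPM added to each) for named genes outside the cell cycle lists, 1 point per library coloured by group and a black bar at the mean of 8. All 8 points lie above 0 for Ranbp1, Ran, Nop58, Hsp90aa1 and Hdac1 and below 0 for the other genes except Cxcr4, for which sham replicate 2 lies at 0.89.

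The largest differences by the edgeR test outside the lists were mostly further division genes, such as the mitotic kinesin Kif20b (5.82) and the PCNA-binding factor Pclaf (4.95), and histone genes such as Hist1h1b (4.84), from which nothing is read. The largest falls outside the lists were Ly49si1 (-2.06), RGD1559482 (-1.76), Cfd, complement factor D (-1.76), Ifitm1, an antiviral membrane protein (-1.64), and Slpi, a protease inhibitor (-1.60). For Ifitm1 the lowest, median and highest libraries were 33.5, 576 and 695 CPM in cycling and 91.9, 1479 and 1975 CPM in non-cycling cells, with sham replicate 2 the lowest in cycling cells, and its adjusted p was 5.84e-08.

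Markers of other cells were measured in the same fit. All 7 tested neutrophil markers were lower in cycling cells, as were 1 of 4 markers of T or NK cells and the 1 tested B cell marker, and neither dendritic marker of 2 tested passed. Of 9 markers of oligodendrocyte precursors 2 were higher, of 3 astrocyte markers 1 and of 5 endothelial markers 3. Among the endothelial markers was Cdh5 (1.06, adjusted p = 0.00366), whose mean was 4.18 CPM against 2.28. Of all 11131 genes tested 24.0% were lower and 19.9% higher. The counts for T or NK cells and for oligodendrocyte precursors are near these shares, so nothing is read from them. The fibroblast (7 tested) and erythroid (2 tested) lists had no member that passed.

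Injury changed the RNA of cycling cells in a set of genes that was small against all genes tested and that depended on single libraries. Summed UMIs of the cycling cells of all 8 libraries were fitted together by edgeR's quasi-likelihood test, over 12339 genes. Against sham, 820 genes (6.65%) passed an adjusted p of 0.05 after mild injury (403 higher, 417 lower), 426 (3.45%) after moderate (278 higher, 148 lower) and 305 (2.47%) after severe injury (203 higher, 102 lower). Severe against mild gave 275 (2.23%; 173 higher, 102 lower), and the mean of the injured groups against sham 709 (5.75%; 309 higher, 400 lower). With scaling by library size the split became 424 higher and 120 lower for moderate, 144 and 338 for severe and 161 and 594 for severe against mild, where the median gene moved by 0.13, -0.32 and -0.34. Fits of only the 2 groups compared called 0 genes for mild by edgeR (3169 with an unadjusted p under 0.05), 29 for moderate and 77 for severe. Leaving out single libraries moved these counts by more than 1.5 times. For mild against sham, 2 genes passed without mild replicate 1, 8 without mild replicate 2, and 107 and 108 without moderate replicates 1 and 2. For moderate against sham, 25 passed without moderate replicate 2, 142 without moderate replicate 1, 185 and 172 without mild replicates 1 and 2, and 718 without sham replicate 1. For severe against sham, 78 and 42 passed without severe replicates 1 and 2, 157 and 141 without mild replicates 1 and 2, 184 and 174 without moderate replicates 1 and 2, and 1142 without sham replicate 2. For severe against mild, 31 passed without either mild library, 59 and 49 without severe replicates 1 and 2, 182 without moderate replicate 2, and 967 and 955 without sham replicates 1 and 2. For the injured mean, 111 and 172 passed without mild replicates 1 and 2, 287 and 107 without moderate replicates 1 and 2, 383 and 280 without severe replicates 1 and 2, and 459 without sham replicate 1. The genes below are therefore taken first from those that passed in each of the 8 fits with a library left out, 19 of the 58 named for the injured mean.

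Among the falls that passed in every fit with a library left out were Cst3, P2ry12 and Clec12a. Cst3, the protease inhibitor cystatin C, stood at 22030 and 20200 CPM in the sham libraries, 3597 and 4944 in mild, 2987 and 2484 in moderate and 7383 and 8235 in severe. Every injured library lay below both sham libraries, and the difference of the injured mean was -2.17 (SE 0.22, adjusted p = 0.0044). P2ry12, of the homeostatic microglia list, stood at 70.9 and 125 CPM in sham, 22.2 and 21.5 in mild, 19.0 and 14.8 in moderate and 29.6 and 41.2 in severe libraries, again without overlap (-2.03, SE 0.27, adjusted p = 0.011).

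Clec12a, an inhibitory lectin receptor of myeloid cells, went from 142 and 130 CPM in sham to 9.96 and 15.1 in mild, 18.1 and 21.5 in moderate and 45.8 and 56.6 in severe libraries (-2.48, SE 0.20, adjusted p = 0.00206). In the injured mean 400 of all 12339 genes tested were lower and 309 higher. Of the 15 homeostatic microglia genes 4 were lower there (P2ry12, Gpr34, Ltc4s and Sall1) and 0 higher, with a median of -0.89 against -0.02 for all genes. Only P2ry12 of these passed in all 8 fits with a library left out, against 5 for Gpr34, 3 for Sall1 and 1 for Ltc4s, whose injured and sham values overlapped. Complement C3 (-3.44), Slfn4 (-2.57) and Grxcr1 (-3.52) were lower in the same fits. C3 stood at 200 CPM in sham replicate 1, 43.1 in sham replicate 2 and at most 17.9 in injured libraries. Non-cycling cells of the same libraries gave like values, -2.49 for Cst3 (adjusted p = 0.0187), -2.13 for Clec12a (0.00845), -3.41 for C3 (0.012) and -3.18 for Slfn4 (0.00812), and -2.38 for P2ry12, which did not pass there (0.0543).

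Of the 17 lipid-laden phagocyte genes 3 were higher in the injured mean (Fabp4, Lgals3 and Apoc1) and 0 lower, with a median of 1.09, and Apoc1 passed in 1 of 8 fits with a library left out. All 12339 genes tested gave 309 rises and 400 falls there, with a median of -0.02. Fabp4, a fatty acid binding protein of lipid-laden macrophages, stood at 1.47 and 9.48 CPM in sham, 352 and 342 in mild, 383 and 1081 in moderate and 326 and 194 in severe libraries. Its difference was 6.003 (SE 0.74, adjusted p = 0.00917), and the value of sham replicate 1 rests on few UMIs. Lgals3, galectin 3, stood at 666 and 514 CPM in sham, 2267 and 2854 in mild, 2067 and 2820 in moderate and 900 and 1315 in severe libraries (1.76, SE 0.28, adjusted p = 0.0201). No injured library overlapped with sham for either gene.

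Vcan, a matrix proteoglycan and monocyte gene that oligodendrocyte precursors also make, was at 2.44 and 4.84 CPM in sham, 26.8 and 32.3 in mild, 70.2 and 103 in moderate and 19.2 and 13.9 in severe libraries (3.14, SE 0.35, adjusted p = 0.00655). The oligodendrocyte precursor list, which holds Vcan, was also higher than sham in the mild and moderate libraries, but not in the severe libraries. It summed to 51.3 and 47.4 CPM in sham, 114 and 182 in mild and 174 and 285 in moderate libraries. Although Vcan was higher in severe libraries too, the list summed to 24.4 and 49.3 CPM there. Its member Pdgfra, a growth factor receptor, was higher after moderate injury (4.19, adjusted p = 0.01, passing in 8 of 8 fits with a library left out) and mild injury (3.12, adjusted p = 0.0246, 4 of 8), and like Vcan did not pass in non-cycling cells, where it differed by -0.86 and -0.91. The part of precursor RNA in these values was not tested. Ifitm1 was at 53.8 and 33.5 CPM in sham and between 523 and 695 CPM in all 6 injured libraries (3.90, SE 0.27, adjusted p = 0.00206). The membrane proteins Emp1 (4.36) and Sdc4 (3.996) and the gene RGD1559482 (5.45) were also higher. In non-cycling cells of the same libraries, fitted in the same way after the data had been seen, Ifitm1 differed by 3.86 (adjusted p = 0.00517) and Fabp4 by 3.49 (adjusted p = 0.0472), and Vcan by 1.52 (adjusted p = 0.11).

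Among the division genes themselves, some were lower in cycling cells of injured cords than of sham cords and, in the injured mean, 0 members of the cell cycle lists were called higher. Of the 31 replication genes 30 were below 0 in the injured mean, with a median of -0.49, and 5 passed the threshold as lower and 0 as higher. Of all 12339 genes tested 400 passed as lower and 309 as higher, with a median of -0.02. Of the replication genes named by the rule, Gins2, Pola1 and Clspn passed in 1 of 8 fits with a library left out. In the mitotic entry list 0 of 19 passed in either direction, with a median of -0.21, and in cytokinesis 0 of 11, with a median of 0.03. Lower past the threshold were 2 of 17 genes of the kinetochore (Zwilch and Knl1, median of the list -0.30) and 1 of 19 of the spindle (Kif15, -0.04). In the chromatin and condensin list 2 of 20 were lower (Ncapg and Ncapg2, -0.47). Of these 5 genes only Zwilch passed in more than 2 of the 8 fits, and no change of these lists is read from so few calls. Ccne2 stood at 63.1 and 28.4 CPM in sham, 10.8 and 9.55 in mild, 14.6 and 11.8 in moderate and 8.12 and 8.23 in severe libraries (-2.03, SE 0.25, adjusted p = 0.00917). Tipin, a fork protection factor, stood at 32.3 and 23.2 CPM in sham and between 4.63 and 8.12 CPM in the injured libraries (-1.94, SE 0.25, adjusted p = 0.00993).

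Rrm2 (-1.31, adjusted p = 0.0162) and the kinetochore gene Zwilch (-2.20, adjusted p = 0.00206) were lower in the same way, each below both sham libraries in all 6 injured libraries. In non-cycling cells Ccne2 differed by -0.64 (adjusted p = 0.366) and Rrm2 by 0.44 (adjusted p = 0.601), while Zwilch (-1.84, adjusted p = 0.0426) and Tipin (-1.56, adjusted p = 0.024) were lower there too. Sham replicate 1, with 64.2% of replication-dominated cells, was the higher sham library for Ccne2, Tipin and Rrm2. With a library left out, the difference ran from -2.40 to -1.51 for Ccne2, -2.09 to -1.82 for Tipin and -1.40 to -1.21 for Rrm2. The part of the makeup of sham replicate 1 in these differences was not tested.

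Class II genes were lower than sham after moderate injury. RT1-Da in cycling cells stood at 175 and 177 CPM in sham, 84.5 and 55.0 in mild, 48.8 and 28.4 in moderate and 121 and 143 in severe libraries. Both moderate libraries were the lowest of the 8, and the difference from sham was -2.32 (SE 0.34, adjusted p = 0.02, passing in 7 of 8 fits with a library left out). Of 9 antigen presentation genes 5 were lower after moderate injury, among them RT1-Da, RT1-Ba, Cd74 and Cd80, 2 after mild and 0 after severe. All 12339 genes tested gave 148, 417 and 102 falls in the same order. After moderate injury RT1-Ba passed in 7 of 8 fits with a library left out and Cd74 and Cd80 in 3 each. In non-cycling cells none of the 4 passed (RT1-Da -1.04, adjusted p = 0.227). The 2 calls after mild injury were RT1-Da, which passed in 0 of 8 fits with a library left out, and Cd80, which passed in 3. Whether moderate libraries differ from mild or severe libraries in these genes was not tested.

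Chemokines were among the genes that were higher after severe injury, where 3 of 15 inflammatory genes were higher and 0 lower. All 12339 genes tested gave 203 rises and 102 falls after severe injury. Of 14 dissociation stress and immediate early genes 0 were higher and 1, Egr1, was lower (-2.28, adjusted p = 0.0334). Egr1 kept its call in 4 of 8 fits with a library left out. Cxcl2 stood at 398 and 665 CPM in sham, 1237 and 882 in mild, 817 and 998 in moderate and 3881 and 4996 in severe libraries. Both severe libraries lay above all others, and the difference from sham was 3.35 (SE 0.40, adjusted p = 0.00817, and 0.0519 at its highest when a library was left out). Ccl7, a monocyte chemoattractant and the third inflammatory gene called, was higher after severe (4.40, adjusted p = 0.0322), moderate (4.07, 0.0327) and mild injury (3.48, 0.0391), with calls kept in 5, 6 and 3 of 8 fits. Cxcl1 (4.49, adjusted p = 0.0306), the cell cycle inhibitor Cdkn1a (2.94, adjusted p = 0.0331), Gadd45b (3.42, adjusted p = 0.0206) and Lyz2 (2.39, adjusted p = 0.0244) were higher as well, each losing its call in at least 2 fits with a library left out. Against mild, Cdkn1a (2.81, adjusted p = 0.0343), Cxcl2 (2.40, adjusted p = 0.0222), Tnf (4.68, adjusted p = 0.0114) and the interferon gene Oasl (2.88, adjusted p = 0.0287) were higher after severe injury, with calls kept in 4 of 8 fits for Cdkn1a and Cxcl2 and in 5 of 8 for Tnf and Oasl. Cdkn1a stood at 16.6 and 30.4 CPM in sham, 20 and 34.6 in mild, 70.2 and 181 in moderate and 179 and 131 in severe libraries, so the moderate and severe values overlapped. These changes were measured in non-cycling cells too, with 3.49 for Cxcl2 and 2.57 for Cdkn1a against sham. Of the autophagy factors, Cxcr4 (4.12, adjusted p = 0.028) and Vegfa (3.598, adjusted p = 0.0437) were higher after severe injury, and Vegfa lost its call in 7 of 8 fits with a library left out. Cxcr4 kept its severe call in 6 of 8 fits and was also called after moderate injury (3.11, adjusted p = 0.0421, kept in 4 of 8), and its severe difference in non-cycling cells was 5.55 (adjusted p = 0.00246).

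**Figure D4:**
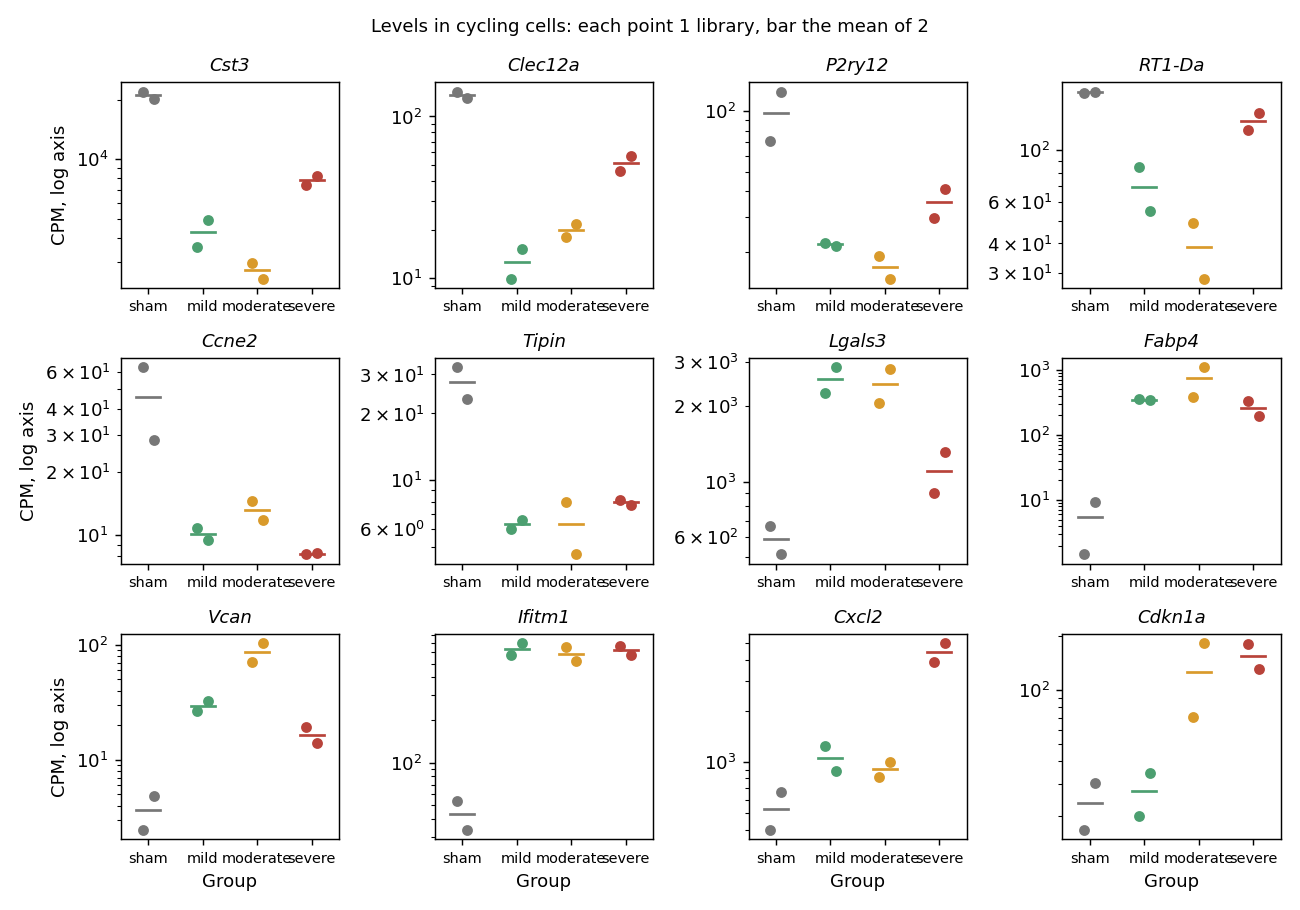
CPM of 12 genes summed over the cycling cells of each library, on log axes that differ between panels; each point is 1 library and the bar the mean of 2. Cst3, Clec12a, P2ry12, Ccne2 and Tipin are higher in both sham libraries than in any injured library, Lgals3, Fabp4, Vcan and Ifitm1 are lower there, RT1-Da is lowest in the moderate libraries and Cxcl2 highest in the severe libraries.

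Some changes between groups moved with RNA of other cells. After moderate injury Col1a1 (6.81, adjusted p = 0.0447) and Fbln2 (5.65, adjusted p = 0.00708) were higher, passing in 3 and 8 of 8 fits with a library left out. The fibroblast list summed to 1228 and 318 CPM in cycling cells of the moderate libraries against 455 and 1.81 CPM in sham. S100a9 (-5.66, adjusted p = 0.0461) and S100a8 (-4.45, adjusted p = 0.0409) were lower in the injured mean, but rested on sham replicate 1, without which they differed by 3.97 and 1.25 in the other direction (adjusted p = 0.106 and 0.253). Mbp, a myelin gene, was lower after severe injury (-2.18, adjusted p = 0.0492, passing in 1 of 8 fits with a library left out), where the oligodendrocyte list summed to 84.2 and 172 CPM. The part of these cells' RNA in the results was not tested. Between severe and mild, the 8 named genes that passed in every fit with a library left out included Rps19 (5.33), Rps6 (4.42), Nhp2 (4.55) and AABR07025010.1 (-4.42, all with adjusted p at most 0.00108), and these 4 differed in the same direction in non-cycling cells. Ribosomal protein genes are known to have near-identical copies, so Rps19 and Rps6 are reported as uncertain; how reads were shared between copies was not tested.

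Last, the difference between cycling and non-cycling cells was itself compared between injured and sham libraries, as the interaction of class and injury. Of 11131 genes 2 (0.0180%) passed an adjusted p of 0.05 in edgeR, Iqgap3 and Id1, and 1018 had an unadjusted p under 0.05. Id1, an inhibitor of differentiation that blocks basic helix-loop-helix factors, stood in non-cycling cells at 59.6 and 65.0 CPM in sham, 22.03 and 12.99 in mild, 27.5 and 9.49 in moderate and 5.53 and 9.37 in severe libraries. In cycling cells it stood at 66.0 and 61.7, 55.0 and 36.0, 65.1 and 22.6, and 15.5 and 22.4 CPM in the same order. The log2 of cycling over non-cycling CPM was 0.14 and -0.07 in sham and between 1.17 and 1.405 in all 6 injured libraries, and the interaction was 1.26 (SE 0.14, adjusted p = 0.0144). It passed in 4 of the 8 fits with a library left out, and lost its call without sham replicate 2, mild replicate 1, moderate replicate 2 or severe replicate 2, the last of which gave the highest adjusted p, 0.08.

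Iqgap3, a scaffold protein of dividing cells, stood in non-cycling cells at 1.43 and 1.28 CPM in sham and between 10.3 and 17.9 CPM in the injured libraries. In cycling cells it stood at 12.2 and 17.1 CPM in sham, 22.7 and 25.3 in mild, 34.6 and 37.5 in moderate and 21.4 and 14.5 in severe libraries. Its log2 of cycling over non-cycling CPM was 2.45 and 2.99 in sham and between 0.46 and 1.06 in the injured libraries, and the interaction was -2.80 (SE 0.26, adjusted p = 0.00627). It passed in 7 of 8 fits with a library left out, and without sham replicate 2 its adjusted p was 0.0631. Neither gene passed when depth-matched non-cycling cells were used, where 0 of 10399 genes passed and 1145 had an unadjusted p under 0.05.

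**Figure D5:**
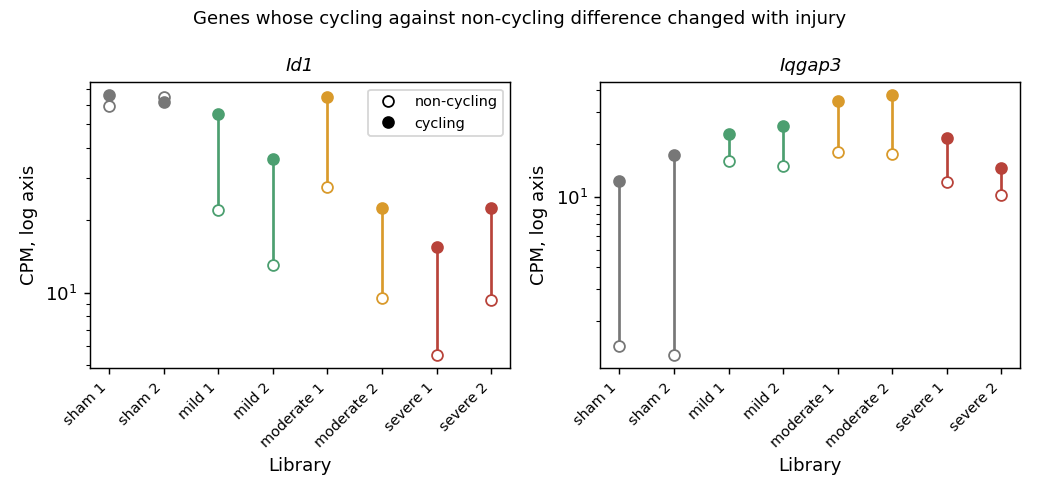
CPM of Id1 and Iqgap3 in non-cycling (open) and cycling cells (filled) of each library, on log axes; a line joins the values of 1 library. For Id1 the sham pairs nearly coincide and every injured library is higher in cycling cells, whereas for Iqgap3 the gap is widest in the 2 sham libraries.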

How the data were processed

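The authors deposited filtered matrices of UMI counts per gene and cell, 1 for each of 8 libraries with 32623 genes, which the file headers give as output of Cell Ranger 5.0.1 (the study's methods name a later version). The submitters' processing notes name Rnor_6.0, and the values are not normalized. The members and gene lists were chosen with earlier results of these data known. Cells were selected as stated, and doublets were not removed in the reported values. Counts were summed per library over cycling and over non-cycling cells, which take the place of replicates. They were tested with edgeR 4.0.16 in R 4.3.3 (TMM, filterByExpr, quasi-likelihood test, Benjamini-Hochberg adjusted p of 0.05), with all 4 groups in 1 fit or, for cycling against non-cycling cells, the library as a block. CPM is relative to all UMIs of those cells. Named genes were the genes of the rule, the study's 8 autophagy factors, up to 4 members per list with the largest change past the threshold (cell cycle lists by size alone) and, outside the cell cycle lists, the 10 largest rises and 10 largest falls past the threshold with a mean of at least 20 CPM and libraries on 1 side. Other list members were named after their values had been seen. Alternatives were depth-matched and thinned cells, removal of high Scrublet scores (scanpy 1.11.5), other scalings and filters, DESeq2 1.42.0, other fits and each library left out. Scripts were tested on simulated data. Promoter windows came from RefSeq (GRCr8) by symbol and were not mapped to the build of the counts. Some items are not reported here. Counting does not separate near-identical gene copies. The precision follows the number of cells and UMIs given in the report.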

Additional observations from a re-analysis of the deposited data

Results flagged for a closer look

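In 78 sets of 8 library values of log2 cycling over non-cycling CPM, 11 had a library that stood apart from the other 7 by more than Dixon's 95% critical value, which chance gives in about 1 in 20 sets, and the library was sham replicate 1 in 7 and sham replicate 2 in 4 of them. Sham replicate 1 was low for Gadd45b at -1.02, Nop58 at 0.12, Ms4a7 at -1.55, Irf7 at -1.86, Camp at -2.01 and RGD1559482 at -4.29, and high for Tgfbr1 at 0.69. Sham replicate 2 was high for Folr2 at 0.45, Cxcr4 at 0.89 and LOC100359539 at 6.58, and low for S100a9 at -4.67. Sham replicate 1 held 81 cycling cells and a neutrophil marker sum of 4139 CPM in them. The part of these in the values was not tested.

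The difference between cycling and non-cycling cells changed with injury, by the interaction test of edgeR with Benjamini-Hochberg adjustment, for Iqgap3 by -2.80 (adjusted p = 0.00627) and for Id1 by 1.26 (adjusted p = 0.0144). The 2 sham libraries lay apart from all 6 injured libraries for both genes.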

How the results depend on the processing

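Over the alternatives, 88 values of comparisons kept their direction and call or stayed within 1.5 times, 57 moved, 12 reversed and 2 crossed the threshold, and of values of single genes or means 3288 held, 1162 lost their call, 20 moved and 6 reversed. The relation of the share with injury order had no steady sign: rho was -0.293 over all cells within the limits, -0.0488 with at least 8 UMIs of Mki67 and Top2a and -0.0488 with thinned cells, and from -0.33 to 0.385 with a library left out. Pearson's r was -0.220, -0.0332 and -0.0128 in the same settings, -0.0235 without the highest Scrublet scores, and from -0.25 to 0.253 with a library left out. Over the 6 injured libraries alone, a restriction chosen after seeing the data, rho was -0.84 (exact permutation p = 0.0667) and r -0.857 (p = 0.0444). There rho was -0.956 (exact permutation p = 0.0222) for the share of all cells within the limits and r -0.726 (p = 0.0889) for the mitotic panel.

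Counts of changed genes in cycling cells are given for mild, moderate, severe, severe against mild and the injured mean in that order. DESeq2 gave 1485, 1101, 949, 796 and 1293, and no filter on low counts 2397, 2031, 1526, 1524 and 2172. Scaling by library size gave 482 for severe and 755 for severe against mild. Fits of the 2 compared groups alone gave 0 for mild by edgeR (3169 genes with an unadjusted p under 0.05, and 1485 by DESeq2 over all groups), then 29, 77 and 879. With a library left out the counts ran from 2 to 1079, 25 to 718, 42 to 1142, 31 to 967 and 107 to 944. With the replicate number as a block they were 417, 372, 181, 191 and 509. The numbers did not pair the libraries, since correlations of same-numbered deviations ran from -0.154 to 0.285. Cycling against non-cycling cells gave 782 without the library block and 4065 to 5295 with a library left out. The interaction gave 29 without a filter, 0 with depth-matched cells by edgeR (1145 with an unadjusted p under 0.05) and 1 to 19 with a library left out. The cause of these changes was not tested.

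Among single genes, S100a9 and S100a8 turned to 3.97 and 1.25 in the injured mean without sham replicate 1, and stood at -6.65 and -5.43 without sham replicate 2. With depth-matched cells Olfml3 turned to -0.0037, Cd83 to 0.0581, Maf to 0.006 and Esam to -0.0335. With 2 libraries a group and 61 to 1075 cycling cells a library, small differences between groups were not detectable.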
